A study of Komagataella phaffii with 13 samples.

Results

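The change from batch growth to a glycerol feed was examined in Pichia pastoris (Komagataella phaffii) GS115, before any methanol had been given. It rests on 2 of the 13 RNA-Seq libraries of the study, the yeast cell culture at 10 h (B_10) and the glycerol feed at 3 h (G_3). The strain carried the Aspergillus niger phytase gene phyA behind the AOX1 promoter, and this held for every library. Batch cells grew on the glycerol of the medium, whereas G_3 cells were fed a concentrated glycerol solution. Genes that differed between G_3 and B_10 were then followed in later libraries. These were the mixed glycerol-methanol feed at 2 h (GM_2) and the methanol induction phase in 12-h steps (M_12 to M_120, 10 libraries). The label of B_10 names a bench-scale batch, while the study's methods describe growth in the production fermenter. The methods also place a stage of saturated dissolved oxygen before the feed and give a higher wet weight at its end. Differences in scale, that stage, cell density and culture age cannot be told apart from the feed. The strain labels run on from GS115 to higher numbers in the later libraries and the extraction label describes another tissue. All libraries were taken as the GS115 yeast that the study names. Of the 5100 identifiers tested, 5032 were locus tags of that yeast, but these come from the reference annotation and cannot show the strain.

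Each phase before methanol was represented by 1 library, and no replicate error exists for the comparison of G_3 with B_10. Values are FPKM, in which the fragments of a gene are divided by its length and by the library's size, which allows levels to be set side by side between genes of different length. Differences were taken on the log2(FPKM + 1) scale. A gene was called where that difference was 1 or more, which is 2-fold for all but weakly expressed genes. No p-value is given for these calls. Of 5439 identifiers, 5100 had a mean of at least 1 FPKM over the 13 libraries and entered the comparison.

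P. pastoris is a methylotrophic yeast. Alcohol oxidase, encoded mainly by AOX1, oxidizes methanol to formaldehyde and hydrogen peroxide inside peroxisomes, where catalase removes the peroxide. Formaldehyde is then either assimilated through dihydroxyacetone synthase or dissimilated to carbon dioxide by formaldehyde dehydrogenase, S-formylglutathione hydrolase and formate dehydrogenase. Glycerol is a preferred carbon source that represses these genes, and the feed of a fed-batch culture sets how much of it reaches the cells.

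Few genes differed between the glycerol feed and batch culture. Compared with B_10, 126 genes were higher in G_3 by 2-fold or more (2.47% of those tested) and 40 were lower (0.784%), together 3.25%. The median difference over all genes was 0.00 and the SD was 0.45. A further 788 genes differed by 0.5 to 1 in either direction, and 4146 lay within 0.5. The genes called higher made up 1.31% of the summed FPKM in B_10 and 4.73% in G_3, while those called lower made up 2.91% and 1.06%. The later steps between successive libraries were larger. From G_3 to GM_2, 609 genes differed by at least 2-fold (11.9%), and from GM_2 to M_12, 1051 did (20.6%). Between neighbouring libraries of the methanol phase the number ranged from 6 to 157 over 9 steps, with a median of 15. Only the first of these steps, M_12 to M_24, came near the 166 of the glycerol feed.

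**Figure D1:**
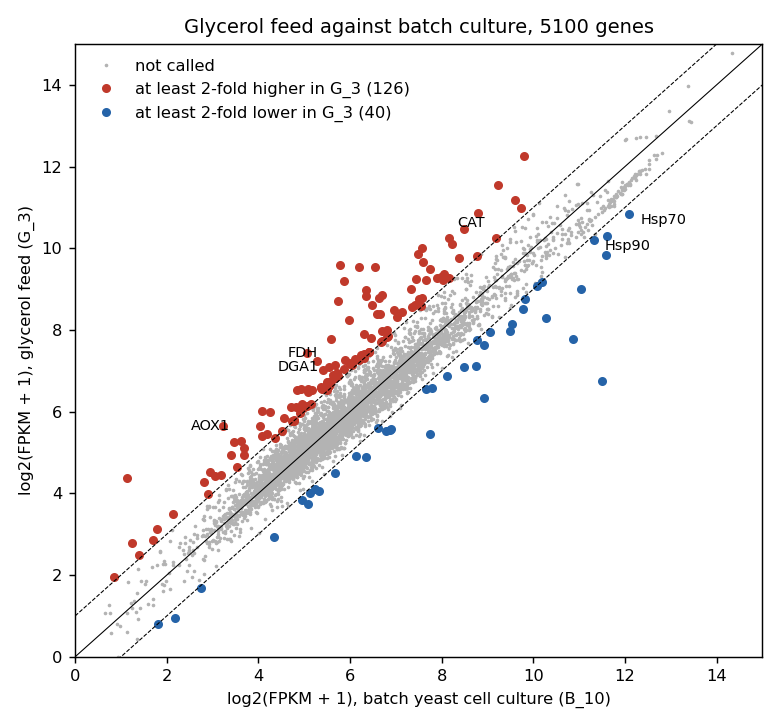
Level of each of the 5100 genes in B_10 (x axis) and G_3 (y axis), both as log2(FPKM + 1). Red points mark the 126 genes at least 2-fold higher in G_3 and blue points the 40 lower. The solid line is equality and the dashed lines mark a difference of 1. The 6 called genes that belong to the pathway lists are named.

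The excess of higher over lower calls depended on the scaling. When each library was rescaled to the same total without its 20 most abundant genes, the median of all genes in G_3 moved to 0.14 and the split became 190 higher to 27 lower. Scaled to the recovered fragments, an alternative chosen after seeing the data, the median was 0.10 and the split 180 to 32. Both scalings raise every gene in G_3, so that no gene called higher could be expected to drop out, while 27 and 32 of the 40 called lower remained called.

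Depth did not limit these calls for most genes. FPKM values were whole multiples of the worth of 1 fragment, which gave 42750728 fragments in B_10, 34291093 in G_3 and 42431917 in GM_2, and 23594593 to 37087819 in the methanol libraries. Among the genes called higher, 107 of 125 with a known length had a 95% counting interval of the G_3 to B_10 ratio (exact binomial) that lay wholly past 2-fold. Among those called lower this was so for 34 of 38. Such intervals cover counting error only and not the variation between cultures.

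Pathway lists were grouped here from genes of the study. Of their 128 genes, all passed the filter, 4 were called higher (AOX1, FDH, CAT and DGA1) and 2 lower (Hsp70 and Hsp90). These shares, 3.13% and 1.56%, stand beside the 2.47% and 0.784% of all genes. The other 122 genes called higher and 38 called lower carried no gene name in the sources used here and are given by locus tag or counted.

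The list of methanol dissimilation genes had the highest median in G_3. As grouped here, it holds AOX1 and CAT, which act before the routes for formaldehyde divide, beside the 3 dissimilation enzymes FLD, FGH and FDH. All 5 members were above B_10 and 3 of them were called, where 2.47% of all genes were called higher. The list median was 1.07 beside 0.00 for all genes. AOX1 (PAS_chr4_0821) was at 11.3 FPKM in B_10, 38.2 in G_3 and 928 in GM_2. In the methanol libraries it lay between 18913 and 33180 with a median of 23727. The G_3 level was 3.37-fold that of B_10, a log2 difference of 1.67 (95% counting interval of the log2 ratio 1.65 to 1.86), and was lower than in GM_2 and in all 10 methanol libraries. A pair of bounds given after a difference is a counting interval of the same kind.

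FDH (PAS_chr3_0932), formate dehydrogenase, the last step of the route to carbon dioxide, followed the same order. Its level was 45.5 FPKM in B_10, 134 in G_3, 13046 in GM_2 and 15396 to 28257 in methanol (median 20096). The G_3 difference was 1.54 (1.49 to 1.64). GM_2 had thus come close to the methanol range for FDH, whereas AOX1 at 928 FPKM in GM_2 was still far under it.

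CAT (PAS_chr2-2_0131), the peroxisomal catalase, was already abundant in batch culture. It stood at 581 FPKM in B_10, 1224 in G_3 and 2417 in GM_2, and ranged from 6548 to 8209 in methanol with a median of 7469. The G_3 difference was 1.07 (1.06 to 1.09). FGH (PAS_chr3_0867), S-formylglutathione hydrolase, went from 62.2 to 104 FPKM, a difference of 0.73 that missed the threshold. FLD (PAS_chr3_1028), formaldehyde dehydrogenase, was at 302 and 358 FPKM with a difference of 0.24. Of the 3 enzymes of the route from formaldehyde to carbon dioxide, FDH alone was thus called. The list spanned 0.24 to 1.67 in the glycerol feed, and all 5 members were at least 2-fold above B_10 in GM_2 and in the methanol median. Of all genes 9.69% and 13.8% were so.

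Among the assimilation genes none of 7 was called in G_3, 4 were above B_10 and 3 below, and the median was 0.07. DAS1 (PAS_chr3_0832), dihydroxyacetone synthase, was at 17.4 FPKM in B_10 and 18.2 in G_3, a log2 difference of 0.07 whose counting interval (-0.03 to 0.17) included 0. DAS2 (PAS_chr3_0834), its near-identical paralog, was at 12.99 and 17.4 FPKM with a difference of 0.39. How reads were divided between such copies is not given in the sources used here. In GM_2 the levels were 374 FPKM for DAS1 and 1283 for DAS2, and the methanol medians were 6451 and 8254. The peroxisomal peroxiredoxin PMP20 (PAS_chr1-4_0547) stood at 27.4 FPKM in B_10 and 27.3 in G_3, before 291 in GM_2 and a methanol median of 17846.

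Among the 4 regulators of the AOX1 promoter, Mit1 (PAS_chr3_0836), a transcriptional activator, came just under the threshold. It was at 83.8 FPKM in B_10, 164 in G_3 and 3542 in GM_2, and 775 to 1297 in methanol. The G_3 difference was 0.96 as deposited, and it passed 1 under both scalings that raise the median of all genes. Mxr1 (PAS_chr4_0487), the master activator of methanol genes, differed by 0.04 (88.5 and 91.1 FPKM) and Prm1 by 0.12. GM_2 was the highest library for Mit1 and Mxr1, at 3542 and 207 FPKM.

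**Figure D2:**
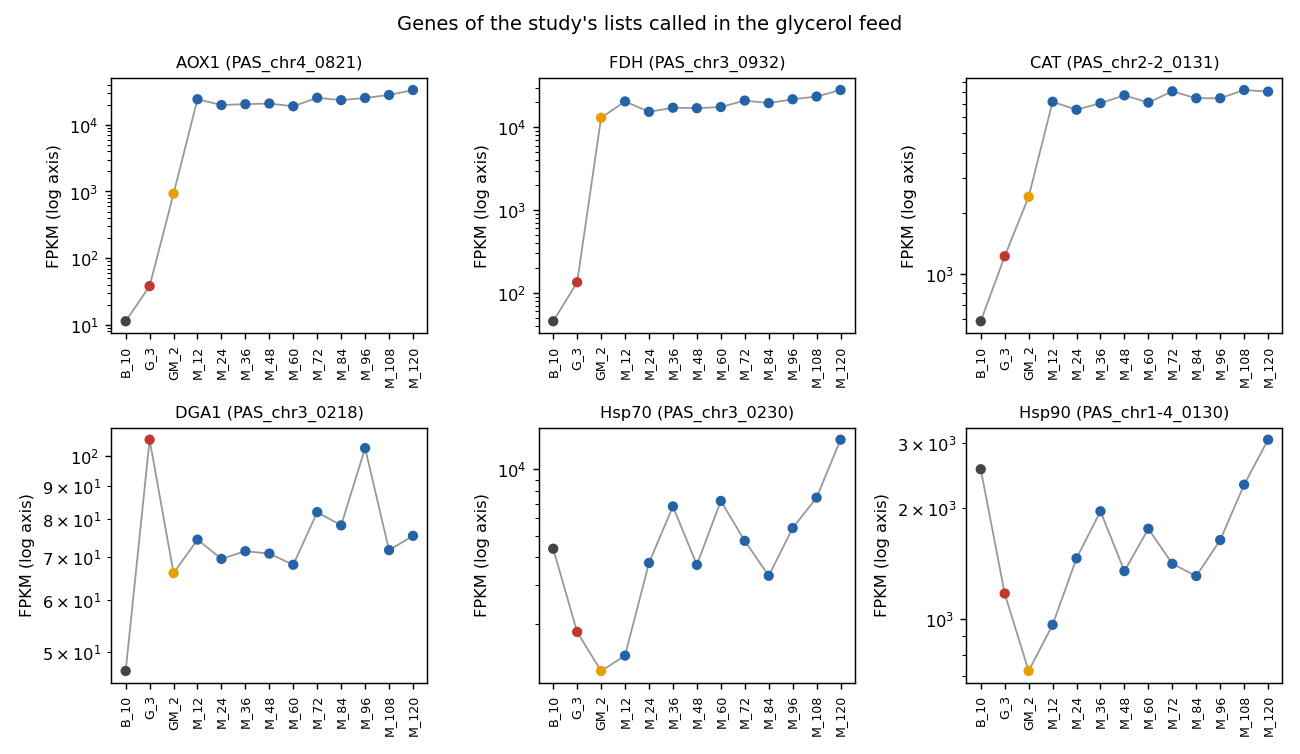
FPKM on a log axis of the 6 genes of the pathway lists called in G_3, with its own range in each panel. Libraries are B_10 (black), G_3 (red), GM_2 (yellow) and the 10 methanol libraries (blue), 1 point a library. AOX1, FDH and CAT were higher in each phase than in the one before, DGA1 was highest in G_3, and Hsp70 and Hsp90 were lowest in GM_2.

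DGA1 (PAS_chr3_0218), a diacylglycerol acyltransferase that makes storage triacylglycerol, had its highest value of all 13 libraries in G_3. It stood at 46.7 FPKM in B_10, 106 in G_3 and 66.05 in GM_2, and at 68.0 to 103 in methanol with a median of 73.0. The G_3 difference was 1.17 (1.12 to 1.25), and the gene returned to less than 2-fold above B_10 in GM_2 and in the methanol median. Its highest methanol value, 103 FPKM in M_96, was still more than 2-fold above B_10 and close to G_3. LRO1 (PAS_chr2-1_0878), the acyltransferase that uses a phospholipid as donor, was likewise highest in G_3, at 68.5 FPKM against 52.5 in B_10 (difference 0.38), and had a methanol median of 28.7. ERG20, the farnesyl diphosphate synthase listed with them, differed by -0.15.

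The beta-oxidation genes break fatty acids down in the peroxisome, and none of 10 was called. In G_3, 7 were below B_10 and 3 above, with a list median of -0.32, where 2545 of all 5100 genes were below. The largest rise was that of the long-chain acyl-CoA synthetase gene ACSL (PAS_chr2-1_0785), at 0.48. FOX2 (PAS_chr2-1_0776), the multifunctional enzyme of the pathway, was at 275 FPKM in B_10 and 164 in G_3, a difference of -0.75, before 1216 FPKM in GM_2. ABCD2 (PAS_chr2-2_0272), a peroxisomal fatty acid transporter, was at 28.8 and 17.9 FPKM (difference -0.65) and then at 102 in GM_2. Both had their lowest value of the 13 libraries in G_3. All 10 members were at least 2-fold above B_10 in GM_2 (median 2.06; 9.69% of all genes were), and the median was back at 0.08 in methanol. The count of 7 below B_10 was the same under both other scalings, where the list median was -0.18 and -0.21.

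No listed gene of central carbon metabolism was called, while most called genes carried no name and could not be placed. In the list of pyruvate dehydrogenase and TCA cycle genes, 10 of 11 were below B_10, beside 2545 of all 5100 genes. None was called, with a median of -0.31 and a range of -0.48 to 0.05. The count of 10 was unchanged under the other scalings, where the median was -0.17 and -0.20 and 1723 and 1922 of all genes were below B_10. The largest difference was that of isocitrate dehydrogenase (IDH, PAS_chr1-1_0233), at 512 FPKM in B_10, 366 in G_3 and 163 in GM_2. In glycolysis 5 of 8 genes were below B_10, with a median of -0.20 that became -0.06 and -0.09 under the other scalings. Neither list was matched for level, and the 200 genes with a mean of at least 1000 FPKM had a median of -0.27. PGK (PAS_chr1-4_0292), phosphoglycerate kinase, went from 2860 to 2040 FPKM, a difference of -0.49, and on to 1222 in GM_2 and a methanol median of 876. The phosphoglycerate mutase gene TPM (PAS_chr3_0693) and the phosphofructokinase subunit FPK1 (PAS_chr1-4_0047) went the other way, from 57.4 to 98.5 FPKM (0.77) and from 206 to 270 FPKM (0.39). Both had their highest value of the 13 libraries in G_3.

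Glycerol kinase GUT1 (PAS_chr4_0783), the entry enzyme for glycerol, was not higher under the glycerol feed. Its level was 1572 FPKM in B_10, 1202 in G_3 and 2395 in GM_2, and 58.3 to 115 in methanol. The G_3 difference was -0.39. The lowest of the 3 levels before methanol, 1202 FPKM, was thus far above the highest methanol value, 115.

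The largest named falls were those of chaperones, which assist protein folding and respond to heat and other stress. Hsp70 (PAS_chr3_0230) stood at 4368 FPKM in B_10, 1831 in G_3 and 1218 in GM_2. In methanol it ranged from 1430 in M_12 to 13643 in M_120, with a median of 5082, so that the libraries lay on both sides of B_10. The G_3 difference was -1.25 (-1.26 to -1.25). Hsp90 (PAS_chr1-4_0130) was at 2549, 1173 and 723 FPKM in the same phases and at 965 to 3066 in methanol, lowest in M_12 and highest in M_120. Its G_3 difference was -1.12 and became -0.98, short of the threshold, when libraries were rescaled without their 20 most abundant genes. Both genes were kept low in GM_2 and had returned in the methanol median.

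None of the other 8 genes of the list for the unfolded protein response and folding was called, and they lay on both sides of B_10, with 4 below and 4 above. BiP (PAS_chr2-1_0140), the chaperone of the endoplasmic reticulum, differed by -0.33 (675 and 536 FPKM). The translation factor gene listed as eIF2a (PAS_chr3_0077) differed by -0.52 (338 and 236 FPKM) and a protein disulfide isomerase gene, PDI (PAS_chr1-3_0125), by -0.34 (82.2 and 64.5 FPKM), while a second PDI gene (PAS_chr4_0844) differed by 0.15. HAC1 (PAS_chr1-1_0381), the transcription factor of the unfolded protein response, was at 112 FPKM in B_10, 198 in G_3 and 310 in GM_2, a G_3 difference of 0.82. Ire1 (PAS_chr3_1104), the sensor that activates HAC1, was at 32.4 and 33.8 FPKM. Over the 10 genes of the list 2 were called lower, beside 0.784% of all genes, none was called higher and the median was -0.25. In ER-associated degradation none of 10 was called and the median of -0.04 became 0.09 and 0.06 under the other scalings.

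Most autophagy and MAPK genes were above B_10 by less than 2-fold. Of 18 autophagy genes 15 were above B_10 and none was called, with a median of 0.38. ATG8 (PAS_chr4_0704), the ubiquitin-like protein of the autophagosome membrane, was at 211 FPKM in B_10, 384 in G_3 and 226 in GM_2, and at 536 to 1054 in methanol. Its G_3 difference of 0.86 was thus absent in GM_2 (0.10) and larger in the methanol median (1.79). PRB1 (PAS_chr1-1_0226), a vacuolar protease, went from 186 to 311 FPKM (0.73), 726 in GM_2 and a methanol median of 1268.

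Of 13 MAPK pathway genes 12 were above B_10, with a median of 0.39. Pbs2 (PAS_chr1-1_0105), the kinase that acts on Hog1 in the osmotic stress branch of Saccharomyces cerevisiae, was at 46.2 FPKM in B_10, 85.4 in G_3, 90.2 in GM_2 and 128 to 188 in methanol (G_3 difference 0.87). Slt2 (PAS_chr3_0895), the MAP kinase of the cell wall integrity branch in that yeast, was at 24.8, 43.8 and 37.7 FPKM and at 70.1 to 133 in methanol (0.79). Under both other scalings, which raise every gene, 17 of 18 autophagy and 13 of 13 MAPK genes were above B_10, but so were 66.2% and 62.3% of all genes, beside 50.1% as deposited. In the methanol median 9 autophagy and 8 MAPK genes were at least 2-fold above B_10, where 13.8% of all genes were.

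In the remaining lists no member was called. Peroxins, the peroxisome assembly proteins, had 7 of 12 above B_10 and a median of 0.09, with PEX14 at 0.55 and PEX5 at -0.48 as the extremes. Nutrient signalling genes had 4 of 7 above B_10 and a median of 0.14.

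**Figure D3:**
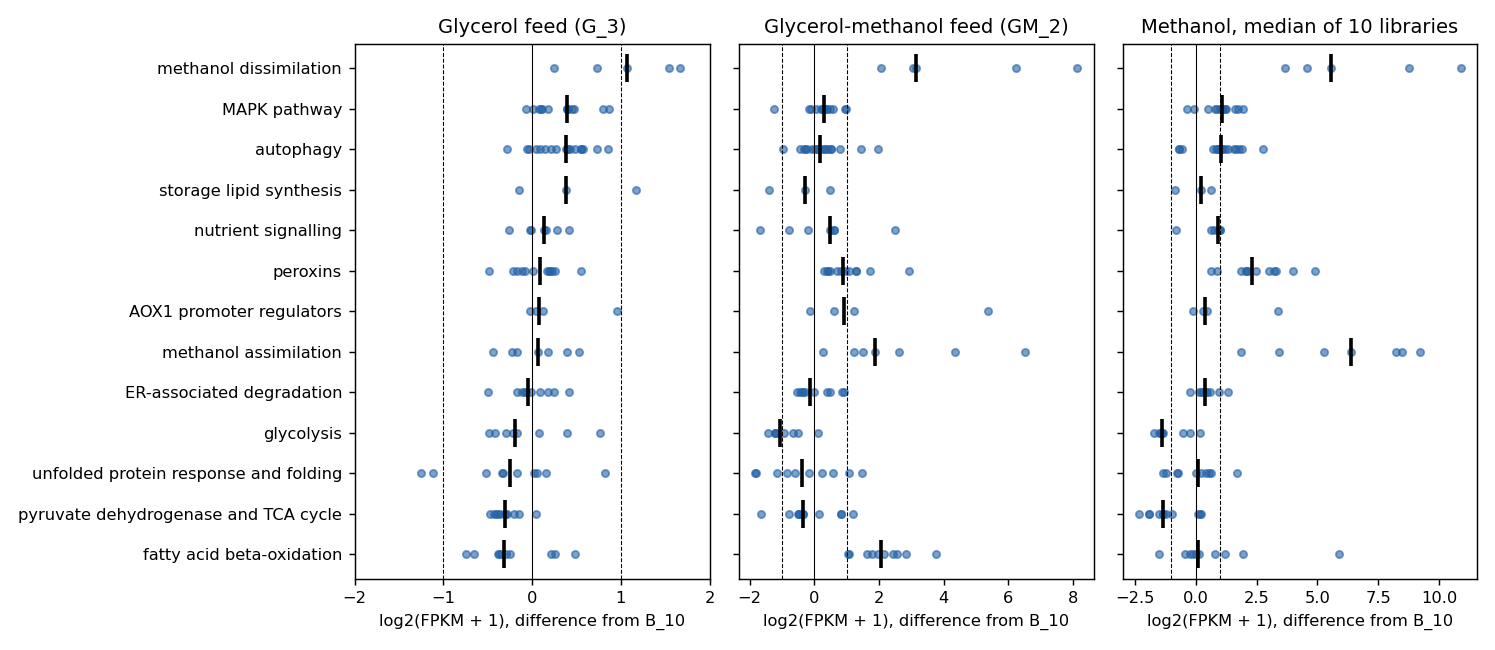
Difference from B_10 on the log2(FPKM + 1) scale of each gene (blue point) in 13 of the pathway lists. Panels show G_3, GM_2 and the median of the 10 methanol libraries, with the list median as a black bar. The x axes differ between panels and dashed lines mark differences of -1 and 1. In G_3 nearly all genes lay within those lines, with AOX1, FDH, CAT and DGA1 above and Hsp70 and Hsp90 below.

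The fate of the called genes was then followed. A gene was counted as kept where it stayed at least 2-fold from B_10 on the same side, as grown where it was also at least another 2-fold beyond its G_3 difference, as returned where it came within 2-fold of B_10, and as reversed where it was at least 2-fold on the other side. All these differences share the library B_10, so a B_10 value that is off by chance would make a gene look kept in every later library. The counts are therefore a description, and several of them moved by over 1.5 times with the scaling, in part because more genes were then called.

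In GM_2, 20 of the 126 genes called higher had grown, 63 were kept, 40 had returned and 3 were reversed. Of all genes, 9.69% were at least 2-fold above B_10 in that library. In the median of the methanol libraries 30 had grown, 51 were kept, 40 had returned and 5 were reversed, where 13.8% of all genes were 2-fold or more above B_10. Scaled to the recovered fragments, 65 had returned and 12 were reversed in the methanol median, of 180 called, and 66 had returned in GM_2. Rescaled without the 20 most abundant genes, 49 had grown in the methanol median and 63 had returned in GM_2, of 190 called. Over the single methanol libraries the number grown ranged from 26 in M_12 to 35 in M_72 and M_96, and the number reversed from 1 in M_36 to 14 in M_12. Both later phases kept 64 of the 126 at least 2-fold above B_10, while 26 were so in neither. A group of 19 was kept or grown in GM_2 only, and 17 in the methanol median only. AOX1 and FDH grew in both phases, CAT was kept in GM_2 and grew in methanol, and DGA1 returned in both.

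Of the 40 genes called lower, 8 had grown, 19 were kept, 10 had returned and 3 were reversed in GM_2, where 7.02% of all genes were 2-fold or more below B_10. In the methanol median 3 had grown, 19 were kept, 16 had returned and 2 were reversed, beside 11.1% of all genes below B_10 by 2-fold. M_12 held the largest number grown, 11, and M_24 to M_120 held 2 to 5. Of these genes 17 were at least 2-fold below B_10 in both later phases and 8 in neither. Only 54 of the 126 genes called higher and 11 of the 40 called lower had the same fate in each of the 10 methanol libraries.

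**Figure D4:**
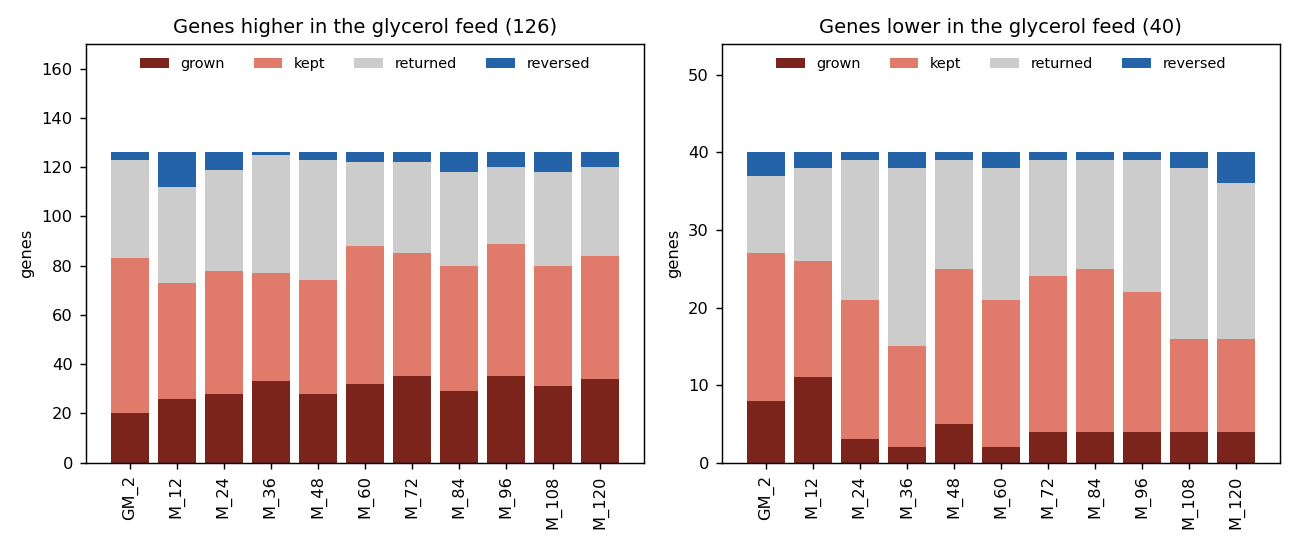
Number of genes (y axis) called higher (left, 126) or lower (right, 40) in G_3 that had grown, were kept, had returned or were reversed in GM_2 and in each methanol library (x axis). M_12 stands out with 14 reversed genes on the left and 11 grown genes on the right.

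G_3 itself was the highest of the 13 libraries for 32 of the 126 genes called higher (25.4%) and GM_2 for 28, whereas a methanol library was highest for 66. G_3 was the highest library for 11.4% of all genes, GM_2 for 18.9% and a methanol library for 47.9%. B_10 was the lowest library for 91 of the 126, beside 24.2% of all genes. The choice of genes by a high G_3 and a low B_10 favours both counts, and nothing is read from them. Of the 40 genes called lower, G_3 was the lowest library for 8, GM_2 for 17 and a methanol library for 15.

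The 4 largest rises went different ways afterwards. PAS_chr2-2_0403 had the largest, 3.81, from 54.0 FPKM in B_10 to 769 in G_3. It was at 993 in GM_2 and at 246 to 799 in methanol (median 374), so that 2 of 10 methanol libraries were above G_3. PAS_chr3_0126 went from 72.0 to 743 FPKM (3.35), was at 633 in GM_2 and lay between 561 and 1256 in methanol.

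PAS_chr2-1_0210 went from 57.2 to 585 FPKM (3.33), dropped to 146 in GM_2 and stood at 2733 to 3928 in all methanol libraries. It was thus lower in the mixed feed than in the glycerol feed before it and in all 10 methanol libraries after it. PAS_chr3_0987 went from 1.20 to 19.8 FPKM (3.24) and 14.8 in GM_2. In methanol it ranged from 7.18 in M_12 to 655 in M_60, with a median of 18.9, the widest spread of the 4.

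The largest fall was that of PAS_chr2-2_0113, from 2886 FPKM in B_10 to 107 in G_3, a difference of -4.74. It was at 192 in GM_2, at 7.93 in M_12 and at up to 382 in later methanol libraries (M_36), below B_10 in all 10. PAS_chr4_0080 went from 1854 to 220 FPKM (-3.07) and 138 in GM_2, and ranged from 259 to 2802 in methanol. Its highest value, in M_120, was above B_10, and its methanol median of 584 was under it.

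PAS_chr2-1_0489 went from 482 to 80.2 FPKM (-2.57), stood at 215 in GM_2 and at 63.4 to 313 in methanol. PAS_chr4_0307 went from 214 to 42.7 FPKM (-2.30) and then stayed there, at 50.4 in GM_2 and 42.2 to 61.6 in methanol. No later library differed from its G_3 level by as much as 2-fold.

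**Figure D5:**
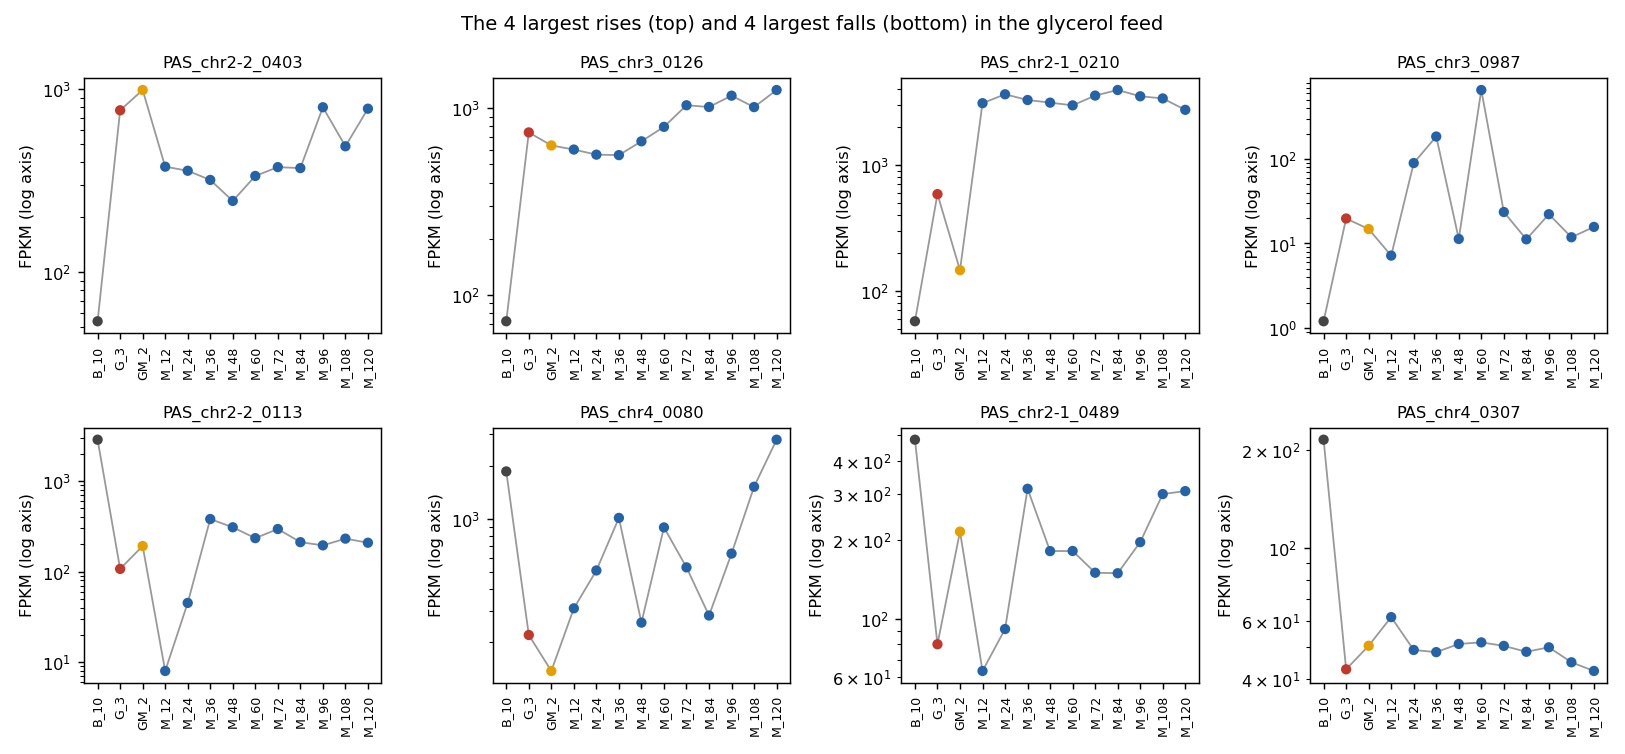
FPKM on a log axis, with its own range in each panel, of the 4 genes with the largest rise (top) and the 4 with the largest fall (bottom) from B_10 (black) to G_3 (red), in all 13 libraries (GM_2 yellow, methanol blue). After G_3 some genes held their level, as PAS_chr4_0307 at 42.2 to 61.6 FPKM, and others moved widely, as PAS_chr3_0987 at 7.18 to 655 FPKM in methanol.

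Of 38 transcripts outside the annotation that were tested, 3 (7.89%) were called higher, beside 2.47% of all genes, and none lower. The transcript at chromosome 3, 1059449 to 1060888 (plus strand, in the coordinates of the file, whose build is not given in the sources used here) was at 46.8 FPKM in B_10, 219 in G_3, 22.1 in GM_2 and 24.6 in M_12, and then at 95.02 to 514 in the later methanol libraries. It was thus high in the glycerol feed, reversed in the mixed feed and back in methanol. The transcript at chromosome 2, 720190 to 721759 (plus strand) was at 213, 718 and 734 FPKM in B_10, G_3 and GM_2 and at 568 to 1601 in methanol. The third, at chromosome 3, 435988 to 436424 (minus strand), was weak, at 2.23 and 6.19 FPKM from 43 and 103 fragments, and its counting interval (0.95 to 2.02) reached under 2-fold.

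Some called genes lay side by side. Of the 160 annotated genes called, 20 lay next to another called gene in the order of the tested genes of the RefSeq annotation ASM2700v1, in 10 pairs out of 5028 adjacent pairs. Of these pairs 7 were both higher, 1 was both lower and 2 went opposite ways. Among all neighbours of called genes 6.27% were themselves called, beside 3.18% of all annotated genes. Overlapping reads between adjacent genes were not examined, and whether counting used strand is not given in the sources used here.

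The methanol hours gave a measurement that the choice of genes did not use. On the deposited scaling alone, a linear trend over the 10 libraries from 12 to 120 h was fitted with limma. Recovered fragments over the library size that FPKM divides by were 0.989 in M_12 and 1.16 in M_120. How far this difference in scaling affects the trends was not tested. All 5100 genes entered, with Benjamini-Hochberg adjustment. These libraries came from successive hours of 1 fermentation, so the p-values measure only the scatter about the line. Of the 126 genes called higher in G_3, 31 rose over the methanol hours and 3 fell (adjusted p under 0.05), 27.0% in all beside 7.69% of all genes (4.88% rose and 2.8% fell). Of the 40 called lower, 0 rose and 3 fell in the limma fit. At an unadjusted limma p under 0.05 the counts were 15 and 8, beside 709 and 588 of all 5100 genes. Without the trend in the prior variance the adjusted counts were again 0 and 3.

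PAS_chr3_0126 rose by 1.25 on the log2 scale between 12 and 120 h (SE 0.16, limma adjusted p = 0.0029), the chromosome 3 transcript at 1059449 by 3.46 (SE 0.49, limma adjusted p = 0.0031) and the chromosome 2 transcript at 720190 by 1.27 (SE 0.19, limma adjusted p = 0.0038). Of the 6 called genes in the pathway lists none passed. FDH had a limma adjusted p of 0.052 with a change of 0.60 (SE 0.17), AOX1 one of 0.070 with a change of 0.55 (SE 0.17), and Hsp70 one of 0.070 with a change of 1.82 (SE 0.57).

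The threshold was a line through a continuous range. The gene just inside it on the upper side had a difference of 1.002 and the one just outside 0.998, and on the lower side these were -1.008 and -0.996.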

How the data were processed

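RNA-Seq of 13 libraries, 1 for each sampled time, was analysed from the table of FPKM values per gene that the authors deposited. The study describes 1 fermentation, while the label of B_10 names a bench-scale batch. Reads were aligned with HISAT2 2.0.5 according to the submitters' processing notes. The sources used here name neither the counting tool nor the genome build. FPKM values times gene length were whole multiples of 1 unit (within 0.01 fragments for 90.2% to 93.3% of values under 1000 fragments), from which fragments were recovered. These were used for depth, counting intervals and 1 alternative scaling, and covered the genes with a length in the file or in the RefSeq gene table (ASM2700v1).

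Genes with a mean of at least 1 FPKM were compared as the difference of log2(FPKM + 1), a log2 scale computed here from the deposited values, with a threshold of 1 and no p-value. Such differences understate the change of weakly expressed genes. Trends over hours were fitted with limma 3.58.1 (R 4.3.3, moderated with a mean trend, 8 residual degrees of freedom) after tests on simulated data. Python 3.11.15, pandas 2.3.3 and scipy 1.17.1 were used otherwise.

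Genes named in the text were the 15 largest changes in each direction and called members of the 14 lists grouped here. The 5 most abundant called genes in each direction and the 5 farthest from B_10 in each fate class were also eligible. No more than 4 unnamed locus tags were given in each direction. Members of the lists that were not called, the annotation-free transcripts and the genes next to the threshold were added after their values were seen. Members and lists were chosen with earlier results of these data known. Lists based on product text could not be built, as the gene table used here holds no product text. Alternatives changed the pseudocount, the filter, the threshold, the scaling, the counting interval, the fate rule and the libraries in the trend.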

Additional observations from a re-analysis of the deposited data

Results flagged for a closer look

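Within the 10 methanol libraries the level of DGA1 was 103 FPKM in M_96 and 68.0 to 82.0 in the other 9, a library far from the others. FGH was at 3861 FPKM in M_12 and at 2824 to 3215 in the other 9. PGK was at 598 FPKM in M_12 and at 812 to 1021 in the other 9. PAS_chr4_0307 was at 61.6 FPKM in M_12 and at 42.2 to 51.6 in the other 9. Such gaps are met by chance in about 1 of 20 genes if the libraries are independent, and 46 genes named in the text were checked. These libraries were successive hours of 1 culture, so that rate may not hold. Among the 166 called genes, 23 had a methanol library standing apart in this way. No share over all genes stands beside this count, so nothing is read from it.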

How the results depend on the processing

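No paired analysis was possible because each phase before methanol holds 1 library and the groups share no more than 1 replicate number. At a threshold of 0.5, 553 genes were higher and 401 lower in G_3, 540 were kept or grown in GM_2 and 661 in the methanol median (110 and 103 at a threshold of 1), and neighbouring methanol libraries differed at a median of 195 genes. At a threshold of 1.5 these values were 46, 9, 41, 39 and 4. Rescaling without the 20 most abundant genes gave 190 genes higher. Asking for the same fate in each of the 10 methanol libraries left 41 genes kept or grown in methanol. Both pseudocounts, both filters and scaling to the recovered fragments kept these 5 values within 1.5 times. The counting interval did so for the genes higher and lower, and leaving out M_12 for the methanol fate, the counts for which each was run. Of the counts of single fate classes under all alternatives, 56 moved by over 1.5 times and 88 did not. The trend called 37 of the 166 genes, and 38 to 48 under its alternatives, none of which changed the scaling. Recovered fragments over the library size that FPKM divides by were 0.989 in M_12 and 1.16 in M_120. Deposited values of late libraries thus stand higher than under scaling to fragments, and how far this affects the rises was not tested. No called gene named from the lists changed direction under the other pseudocounts and scalings. AOX1 ranged from 1.40 to 1.79, FDH from 1.47 to 1.68, CAT from 1.07 to 1.21, DGA1 from 1.10 to 1.30, Hsp70 from -1.25 to -1.11 and Hsp90 from -1.12 to -0.98. Of the 14 list medians the one of ER-associated degradation changed sign. The absence of a second culture in any phase limits all comparisons of G_3 with B_10, and depth limits those of genes with few fragments.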

Other observations

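Difference from B_10 went with expression level in the most abundant genes. Over the 200 genes with a mean of at least 1000 FPKM the median difference in G_3 was -0.27, and 58.0% were below B_10, beside a median of 0.01 for the 3378 genes between 10 and 100 FPKM. The same 200 genes had the largest share of calls in the upward direction, 8.50%, beside 1.12% between 10 and 100 FPKM. Their medians in GM_2 and in the methanol median were -0.61 and -0.65.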
